A study of Homo sapiens with 16 samples.

Results

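H3K4me1 and H3K27me3 were compared in BE2C cells given the DMSO vehicle, using 4 of the 16 CUT&Tag libraries of the series, 2 for each mark. The members were taken by their labels (DMSO with either mark), not by a measured value. All libraries come from BE2C, a single human line of neuroblastoma, a childhood tumour of the sympathetic nervous system, in which the oncogene MYCN is amplified. The cells had received 0.1% DMSO for 72 h, as the vehicle control for GSK-J4, an inhibitor of the H3K27 demethylases KDM6A and KDM6B. For comparison, the libraries of cells transfected with a control siRNA (siCtrl, 72 h) and of cells given 2.5 µM GSK-J4 for 72 h were used, each with 2 libraries per mark; cells with KDM6B knockdown (siKDM6B33) served for single values. DMSO and siCtrl cells carried no targeted change.

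H3K27me3 is written by the Polycomb repressive complex PRC2, whose catalytic subunit is EZH2, and is removed by KDM6A and KDM6B. It covers silent developmental genes such as the HOX clusters, often over wide domains. H3K4me1 is written mainly by KMT2C and KMT2D and marks enhancers and the flanks of active promoters, while the start of a highly active gene usually carries H3K4me3 in its place. Both marks can lie on the same stretch of chromatin at poised enhancers and at Polycomb-bound developmental genes, but islands called from a population of cells cannot show whether they sit on the same nucleosome or in the same cell. CUT&Tag brings a transposase to the chosen mark with antibodies, and the DNA inserted into around it is sequenced. The authors called broad islands with SICER in each library, and each island carries a score that rises with its width and read density; scores were read here as ranks within a library, from 0 for the lowest to 100 for the highest.

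In DMSO cells the 2 marks shared much of their territory. A length of 25.5 Mb was called in all 4 libraries, which is 53.5% of the 47.6 Mb that both H3K27me3 libraries called and 43.8% of the 58.2 Mb that both H3K4me1 libraries called, while these H3K4me1 islands span 1.88% of the genome. In siCtrl cells the shared length was 3.83 Mb, or 9.13% of H3K27me3 and 4.52% of H3K4me1. Before any gene is read, the identity of the DMSO H3K27me3 islands has to be set beside that number: of their consensus length, 51.7% and 51.6% fell in the islands of the 2 siCtrl H3K4me1 libraries, about as much as fell in the 2 siCtrl H3K27me3 libraries (50.7% and 50.8%). The H3K27me3 libraries of DMSO cells thus held islands where siCtrl cells had H3K4me1. The results below are therefore given with the marks that the siCtrl libraries called at the same places. Each control has its own libraries and its own handling, so vehicle, transfection and library preparation cannot be told apart as sources of this difference.

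Coding gene starts were sorted into classes by the islands within 1 kb of the annotated start. A start had both marks where all 4 DMSO libraries called an island, had 1 mark only where both libraries of that mark and none of the other did, was unsettled where replicates of a mark differed, and had neither mark where no library called. Promoter sequence from 100 bases before the start is shown for genes with both marks whose start windows were among the most fully covered of 13 gene lists, since CpG dinucleotides, the favoured ground of Polycomb at promoters, are spread unequally among them. Capitals mark CpG dinucleotides, sequences run 5′ to 3′ along the gene and come from the hg19 reference, and each ends in the first bases of the first exon. MYCN (chr2:16080572-16080721, plus strand) and LHX3 (chr9:139096925-139097074, minus strand) had both marks.
MYCN: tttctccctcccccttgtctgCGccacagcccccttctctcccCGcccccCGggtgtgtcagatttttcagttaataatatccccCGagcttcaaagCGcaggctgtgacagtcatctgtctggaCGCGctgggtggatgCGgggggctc
LHX3: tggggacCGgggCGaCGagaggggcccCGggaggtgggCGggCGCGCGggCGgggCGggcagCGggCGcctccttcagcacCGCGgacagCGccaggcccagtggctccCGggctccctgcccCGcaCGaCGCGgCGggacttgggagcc
Of the promoters with both marks, LHX3 held 21 CpG in its 150 bases and MYCN 8, with a GC content of 82% and 60.7%. These sequences are too few to stand for their class.

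Islands of the 2 marks differed in number and width. The H3K27me3 libraries held 7174 and 7397 islands over 58.3 and 64.6 Mb, with median widths of 6600 and 7000 bp. The H3K4me1 libraries held 18779 and 17764 islands over 77.7 and 68.0 Mb, with median widths of 3200 and 2800 bp. H3K27me3 islands were wider by 3800 bp (6800 ± 283 against 3000 ± 283 bp, SD, n = 2), and the libraries of the 2 marks did not overlap in this value; the two-sided exact permutation p was 0.33, the smallest that 2 against 2 libraries can give. In siCtrl cells the widths were 3800 ± 0 and 3500 ± 141 bp (SD, n = 2). The lists also began at different scores. The lowest island score was 83.1 and 90.7 for H3K27me3 and 52.6 and 48.8 for H3K4me1 in DMSO cells, and 45.4 in each siCtrl H3K27me3 library. The 2 GSK-J4 libraries of H3K27me3 alone had lowest scores of 50 and 97.2 and median widths of 3000 and 7400 bp. The part of the lowest score in the widths was not tested. Replicates shared more length with each other (Jaccard index, shared over joint length, 0.665 for H3K4me1 and 0.632 for H3K27me3) than any H3K4me1 library did with any H3K27me3 library (0.313 to 0.34). The deposited lists hold no read totals, but the narrow peak files imply 0.0298 and 0.0338 background tags per base for H3K27me3 and 0.0569 and 0.0483 for H3K4me1, with median summits of 3 and 5 tags, so an absent island means only that none was called at this depth.

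When all islands were joined where they touched, 20682 regions resulted. Both marks were called in all 4 libraries in 4049 regions (19.6%), H3K27me3 only in 1337, H3K4me1 only in 9342, and 5954 were unsettled. The siCtrl libraries divided the 4049 regions. In 2750 of them (67.9%) both siCtrl libraries of H3K4me1 but not those of H3K27me3 called an island, in 700 (17.3%) both marks were called, in 596 (14.7%) only H3K27me3 was, and in 3 neither. Regions with a single mark mostly kept it in siCtrl cells. All 1337 H3K27me3-only regions had H3K27me3 there, 1330 of them without H3K4me1. Of the 9342 H3K4me1-only regions, 8741 had H3K4me1 alone and 449 (4.81%) neither mark. By length, 88.6% and 88.5% of the territory with both marks lay in the siCtrl H3K4me1 libraries and 23.7% in each siCtrl H3K27me3 library. In GSK-J4 cells, for which DMSO is the vehicle control, 3742 of the 4049 regions (92.4%) had both marks again. Regions with a single mark kept it less often there. Of the H3K4me1-only regions, 6305 (67.5%) had H3K4me1 alone, 729 (7.8%) both marks and 2294 (24.6%) neither. Of the H3K27me3-only regions, 1113 (83.2%) had H3K27me3 alone and 211 (15.8%) neither.

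**Figure D1:**
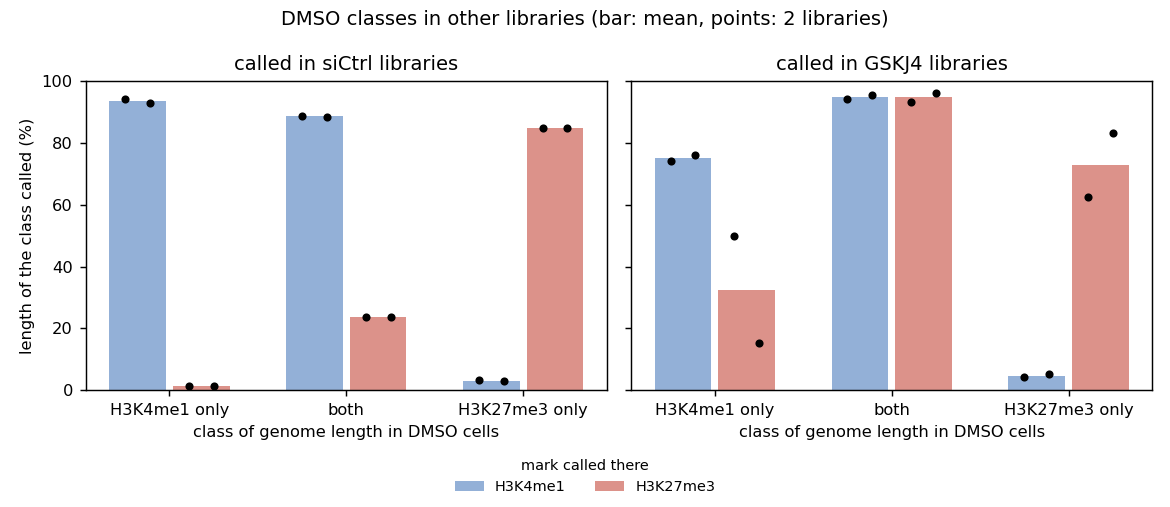
Share of the length of each DMSO class (H3K4me1 only, 24.2 Mb; both marks, 25.5 Mb; H3K27me3 only, 17.2 Mb) that the siCtrl libraries (left) and the GSKJ4 libraries (right) call for H3K4me1 (blue) and H3K27me3 (red); bars are means and points the 2 libraries. In siCtrl the class with both marks is called at 88.6% and 88.5% for H3K4me1 but at 23.7% in each library for H3K27me3, while in GSKJ4 both marks are called at over 93%.

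The GSK-J4 H3K27me3 libraries differed from each other, with 16675 and 8005 islands and median widths of 3000 and 7400 bp. The first called 49.9% and the second 15.1% of the H3K4me1-only length of DMSO cells, against 1.22% and 1.27% in siCtrl H3K27me3. For the territory with both marks the 2 libraries were close, at 93.3% and 96.1%. In KDM6B knockdown cells 2706 of the 4049 regions (66.8%) had H3K4me1 alone and 1194 (29.5%) had both marks. Of the H3K4me1-only regions, 6833 (73.1%) had H3K4me1 alone in these cells and 2339 (25%) neither mark, while all 1337 H3K27me3-only regions had H3K27me3.

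The 3 subsets of regions with both marks were unlike in place and in rank. Regions that siCtrl marked with H3K4me1 alone were mostly away from starts: 20.9% held a coding start and 53.5% lay within a gene without one. Their strongest H3K4me1 island ranked at a median of 91.3 and 90.8 in the 2 libraries, and their strongest H3K27me3 island at 48.4 and 51.3. Regions that siCtrl marked with H3K27me3 alone differed in both respects, since 73.5% held a coding start and the medians were 89.5 and 89.6 for H3K27me3 but 55.2 and 31.4 for H3K4me1. Regions with both marks in siCtrl ranked high in each, at 79.8 and 74.3 for H3K4me1 and 76.8 and 76.2 for H3K27me3, and 65.7% held a start. By these medians, the mark not called in siCtrl cells was the lower ranked of the pair in DMSO cells. H3K27me3 outspanned H3K4me1 in 584 of the 596 H3K27me3-alone regions (98%, every H3K27me3 library over every H3K4me1 library), and in 335 of the 2750 H3K4me1-alone regions (12.2%). In the latter H3K4me1 outspanned H3K27me3 in 660 (24%), and in 1755 the libraries of the marks overlapped in length, so neither mark was the longer in most of them. CpG density followed the same split, with a median of 36.4 per kb in regions with both marks in siCtrl, 29.2 in the H3K27me3-alone subset and 18.9 in the H3K4me1-alone subset, against 22.6 in H3K27me3-only and 14.7 in H3K4me1-only regions of DMSO cells.

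Across the 4049 regions the ranks of replicates followed each other (Spearman coefficients over regions 0.97 for H3K4me1 and 0.93 for H3K27me3), while the ranks of different marks hardly did (0.12 to 0.23). These regions are not independent replicates, and the coefficients are a description.

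Whether co-called islands rank low or high differed by mark. An island was co-called where the consensus of the other mark touched it. Of the H3K4me1 islands, 27.7% in replicate 1 and 27.4% in replicate 2 were co-called with H3K27me3, and they ranked at a median of 85.3 and 85.7, against 40.4 in each library for the others. The share rose steeply at the top: it was 8.94% and 10% in the lowest of 10 equal bins by score, 25.3% and 25.6% in the eighth, 68.7% and 71.1% in the ninth and 98.4% and 98.6% in the highest. Nearly every H3K4me1 island of the highest bin by score therefore touched an H3K27me3 island of DMSO cells. In siCtrl cells H3K27me3 was called in both libraries at 9.85% and 7.21% of this bin, beside 11.1% and 12% of the lowest. Of the highest bin, 88.6% and 91.4% were co-called in DMSO and had H3K4me1 without H3K27me3 in siCtrl. Co-called H3K4me1 islands were also wider, with medians of 5400 and 5000 bp against 2600 and 2400 bp, and a wider island has more chance to touch another. Binned by score per kb of island, the share in the highest bin was 81.3% and 82.3%, and in the lowest 15.2% and 17.1%. Compared only with islands of similar width (within 10 bins of width), they still ranked higher, at 66.6 and 67.1 against 44.4 and 44.8.

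For H3K27me3, 69.0% of islands in replicate 1 and 69.4% in replicate 2 were co-called with H3K4me1. Their median rank was 53.2 and 53.1 against 43.9 and 44.7 for the others, a difference of 8.89 averaged over the libraries. This small difference depended on the overlap asked for: where at least 50% of the island had to lie under H3K4me1, the difference turned to -5.19, and without H3K4me1 replicate 2 the difference was 18.7. Binned by score, the share co-called stayed between 61.8% and 67.8% through the lower 8 bins, and was 77.7% and 78.1% in the ninth and 94.3% and 94.5% in the highest. Binned by score per kb of island, which divides the score by width, the share was not level. It was 48% and 44.3% in the lowest bin, 70.2% and 72% in the fourth and 89.8% and 90.9% in the highest. The siCtrl marks also shifted along the bins by score. In the lowest bin 62.2% and 63% of islands were co-called and had H3K4me1 without H3K27me3 in siCtrl, and in the highest 22% and 24.2%; H3K27me3 itself was called again in siCtrl for 37.1% and 36.2% of the lowest bin and for 78% and 75.8% of the highest.

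**Figure D2:**
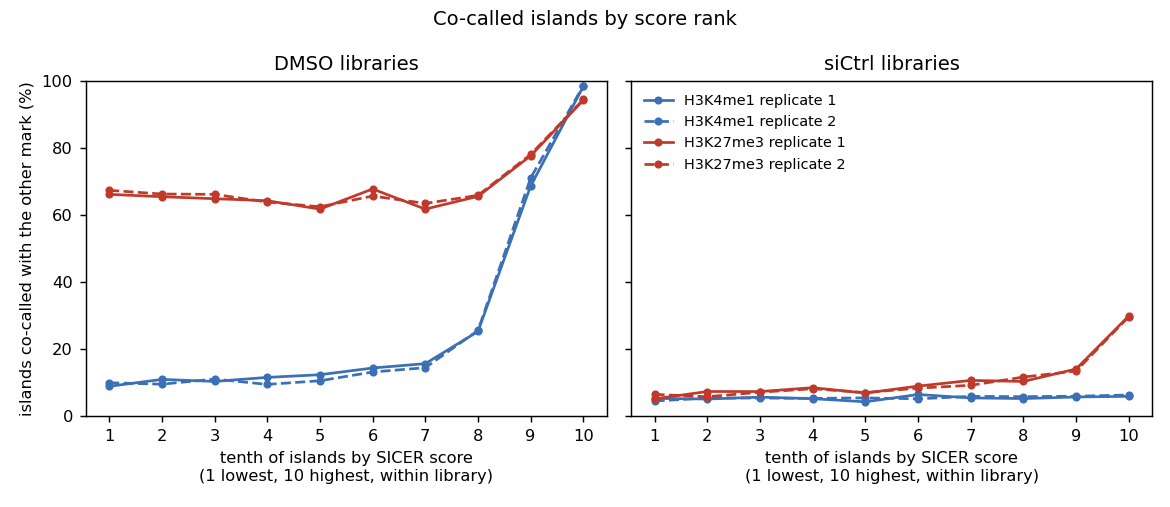
Share of islands co-called with the other mark (y axis, percent) in each of 10 equal bins of islands by SICER score within a library (x axis, 1 lowest and 10 highest), for DMSO (left) and siCtrl (right); blue is H3K4me1, red H3K27me3, solid and dashed lines are replicates 1 and 2. In DMSO the H3K4me1 lines climb from 8.94% and 10% to 98.4% and 98.6%, while the H3K27me3 lines stay between 61.8% and 67.8% up to the eighth bin; the scores are not divided by width.

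The same measure was far lower in siCtrl cells. There 10.8% ± 0.212 of H3K27me3 islands and 5.52% ± 0.0566 of H3K4me1 islands were co-called, against 69.2% ± 0.283 and 27.5% ± 0.212 in DMSO cells (SD, n = 2 libraries each). In the other conditions the siKDM6B33 libraries had 16.8% and 16.7% of H3K27me3 islands and 11.3% and 11.2% of H3K4me1 islands co-called, and the GSK-J4 libraries 72.9% and 69.2%, and 33.2% and 33.6%. Each DMSO library lay above each siCtrl library, and the two-sided exact permutation p was 0.33 for either mark, again the smallest possible. For the share of H3K27me3 length under the same-numbered H3K4me1 library the values were 53.9% ± 5.38 and 8.96% ± 0.0975 (SD, n = 2, exact permutation p = 0.33).

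Narrow peaks, called by the authors with MACS2 in the same libraries, showed where the signal sat inside a region. In regions that siCtrl marked with H3K4me1 alone, 90.4% and 90.1% of the H3K27me3 summits of the 2 DMSO libraries lay within 200 bp of a summit of H3K4me1 replicate 1, and 87.2% and 88% of one of replicate 2. In regions that siCtrl marked with H3K27me3 alone, the same shares were 41.9% and 41.3%, and 28.5% and 28.4%. There it was the H3K4me1 summits that stood on H3K27me3 summits, at 73.9% and 75.2% for H3K27me3 replicate 1 and 76.7% and 78% for replicate 2. H3K4me1 had 4.7 and 4.18 narrow peaks per 10 kb in the former regions and 1.26 and 0.821 in the latter, and the part of peak density in these shares was not tested. H3K4me1-only regions, which by definition hold no H3K27me3 island, still held 3540 and 4299 H3K27me3 narrow peaks, of which 75.8% and 74.9% lay within 200 bp of a summit of H3K4me1 replicate 1. Their median fold over background was 3.81 and 4.42. H3K27me3-only regions likewise held 704 and 573 H3K4me1 narrow peaks, at a median fold of 3.72 and 3.58.

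The letters under the summits were compared in windows of 300 bases centred on the strongest summit of each region. A median of 24 CpG was found at H3K27me3 summits of the H3K27me3-alone subset, 19 where siCtrl had both marks and 6 in the H3K4me1-alone subset, against 6 over all 17158 windows together. H3K27me3-only windows held a median of 14, more than the 8 and 9 at H3K4me1 and H3K27me3 summits of all regions with both marks. The GATA motif AGATAA (either strand) occurred in 16.4% of H3K4me1-only windows, 6.1% of H3K27me3-only windows and 12.7% of all windows. The E-box CAGCTG occurred in 23.8% of H3K4me1-only windows, 18% of H3K27me3-only windows and 25.5% of all; the share was 29.2% at H3K4me1 summits of regions with both marks. The homeodomain core TAATTA was found in 6.85%, 2.14% and 4.96% of H3K4me1-only, H3K27me3-only and all windows, and the AP-1 motif TGANTCA in 10.2%, 4.48% and 9.13%. The median GC content was 53% in H3K4me1-only and 61.3% in H3K27me3-only windows, and its part in these shares was not tested. A match of letters is a description of the sequence and not a binding site.

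The 8 regions with both marks of highest mean rank, outside the MYCN interval, spanned 36 to 66.4 kb. The first held the start of KCNH2, a voltage-gated potassium channel gene (chr7:150633001-150679800), where the H3K4me1 islands ranked at 100.0 in each library and the H3K27me3 islands at 99.4 and 99.1. Others held SAMD11, KIF26A (a kinesin), SLC7A5 (a large neutral amino acid transporter), SHMT2 (mitochondrial serine hydroxymethyltransferase) with NXPH4 and NDUFA4L2, and CHPF with ASIC4 and neighbours, or lay nearest to DNAJB8 and PPARA. In 6 of the 8 siCtrl called H3K4me1 alone; SAMD11 and the SHMT2 region had both marks there, and all 8 had both in GSK-J4 cells. The 8 H3K27me3-only regions held FOXA2 and OLIG1, regulators of endoderm and oligodendrocyte fates, IRF8, a myeloid factor, and NLRP6 with PGGHG, or lay nearest to IGF1R and SPACA7, or, at 308598 and 1006670 bp, to ALG10 and SPIDR. All 8 had H3K27me3 alone in siCtrl, at DMSO ranks of 85.3 to 93.7. The 8 H3K4me1-only regions were 3.4 to 13.6 kb wide. They held 1 start (SLC19A1, a folate transporter) and lay otherwise nearest to VAMP3, TSPAN9, PTK7, SULF2, RCOR1, JARID2 and MYO18B. Their DMSO ranks ran from 83.8 to 91.2 and all 8 had H3K4me1 alone in siCtrl. In GSK-J4 cells the TSPAN9 and RCOR1 regions had H3K4me1 alone and the others had both marks, beside 7.8% of all H3K4me1-only regions.

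At gene starts the same division was seen. Of 20136 coding genes, 1542 had both marks at the start (7.66%), 617 had H3K27me3 only (3.06%), 1744 had H3K4me1 only (8.66%), 1863 were unsettled and 14370 had neither. Of the 1542 genes, siCtrl cells had both marks at 433, H3K27me3 only at 409, H3K4me1 only at 595 and an unsettled state at 105. H3K27me3-only starts stayed H3K27me3-marked in both siCtrl libraries for 598 of 617 genes (96.9%), and H3K4me1-only starts stayed H3K4me1-marked for 1630 of 1744 (93.5%). At 2 kb downstream of starts with both marks, 85.5% and 86.7% still lay in an H3K27me3 island and 72.3% and 65.9% in an H3K4me1 island. At 2 kb downstream of H3K4me1-only starts the H3K4me1 share was 30.9% and 28.1%, so their islands were short.

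**Figure D3:**
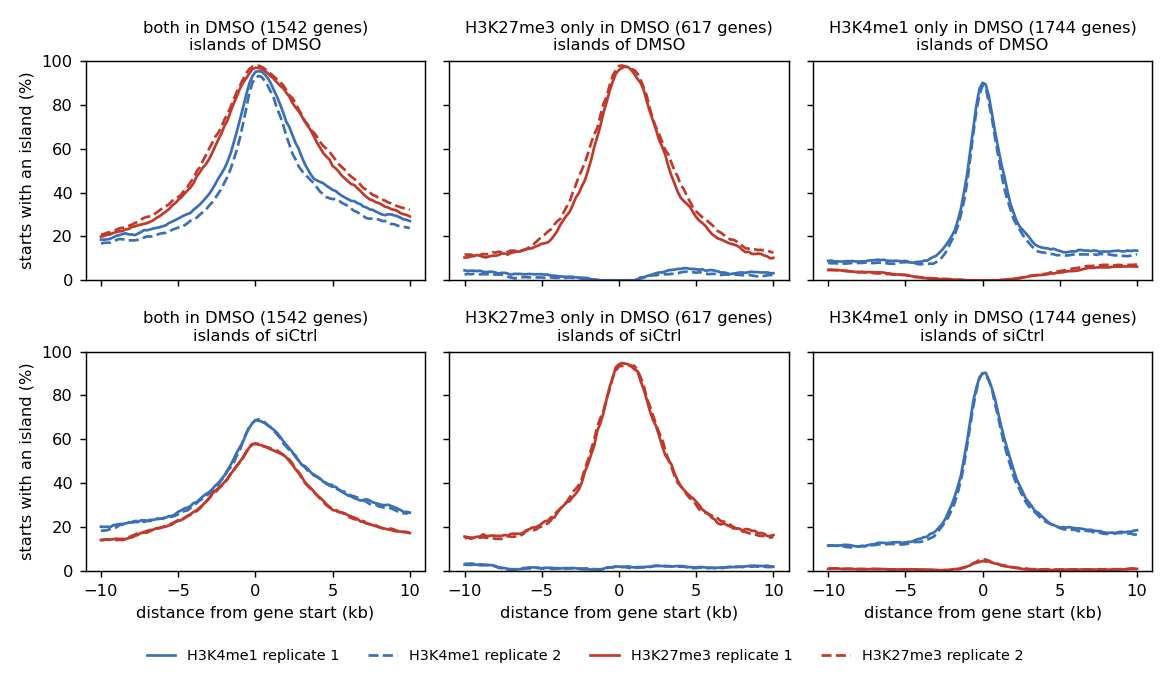
Share of gene starts (y axis, percent) whose surroundings lie in an island at each distance from the start along the gene (x axis, kb), for the DMSO classes (columns) in DMSO (upper row) and siCtrl (lower row) libraries; blue is H3K4me1, red H3K27me3, solid and dashed lines are replicates 1 and 2. At the 1542 starts with both marks in DMSO the siCtrl curves stand, at the start itself, at 68.7% in each library for H3K4me1 and at 58.2% and 57.8% for H3K27me3, while the single-mark classes keep their mark.

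Developmental regulators made up the lists with most starts carrying both marks. Of 39 HOX genes, 22 had both marks, 4 H3K27me3 only and none H3K4me1 only; of 79 homeobox and other developmental regulators, 40 had both and 11 H3K27me3 only; and of 29 genes for WNT ligands and Frizzled receptors, 15 had both and 1 H3K27me3 only. The shares with both marks, 56.4%, 50.6% and 51.7%, stand beside the 7.66% of all coding genes. HOX genes share islands within their clusters, as do WNT1 and WNT10B, so they are not independent. The siCtrl libraries called H3K27me3 at 40 of the 40 developmental regulators and 15 of the 15 WNT and Frizzled genes with both marks, and at 18 of the 22 HOX genes. They called H3K4me1 at 17 of the 40, 7 of the 15 and 11 of the 22. Over all 1542 starts with both marks, the siCtrl libraries called H3K27me3 at 59.1% and H3K4me1 at 68.9%.

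LHX3, a LIM homeobox factor of pituitary and motor neuron development, had its start window covered to 100% by both marks in all 4 libraries, at ranks of 97.0 and 96.1 for H3K4me1 and 99.7 and 99.6 for H3K27me3. LHX1, a related kidney and neural factor, was covered alike, and both genes had both marks in siCtrl. PAX2, a kidney and midbrain factor, ranked at 95.9 and 83.0 for H3K4me1 and at 99.9 and 99.8 for H3K27me3. LHX5 ranked at 96.3 and 91.6 for H3K4me1 and 99.9 in each library for H3K27me3, but siCtrl called no H3K4me1 at its start (0% of the window in each library). WNT1 and WNT10B, the neighbouring WNT ligand genes, lay in H3K27me3 islands ranked at 99.3 in each library, with H3K4me1 at 92.0 and 86.5 for WNT1 and at 82.0 and 75.8 for WNT10B. WNT10A and WNT6 carried the reverse balance, with H3K4me1 at 99.3 in each library for WNT10A and 97.3 and 97.7 for WNT6, and H3K27me3 at 92.8 and 92.5 and at 72.9 and 76.5. All 4 WNT genes had both marks in siCtrl, and FZD3 had neither mark in DMSO cells.

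The HOX clusters were not uniform. HOXB2 lay in H3K27me3 islands of 131 and 113 kb, ranked at 99.9 in each library, with no H3K4me1 at its start. HOXB3 beside it had the same H3K27me3 rank and was unsettled, since H3K4me1 replicate 1 called an island there ranked at 2.2 and replicate 2 none. HOXC4 and HOXC5 had H3K4me1 at 99.6 and 98.6, with H3K27me3 at 48.4 and 91.6 and at 74.6 and 91.6. At these genes, and at HOXC8 and HOXC9, siCtrl called H3K4me1 only. HOXD1 had neither mark.

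Mesenchymal-state genes and catecholamine genes mark alternative cell states of neuroblastoma. The shares below stand beside 7.66% of all coding genes with both marks, 3.06% with H3K27me3 only and 8.66% with H3K4me1 only. Of 17 mesenchymal-state genes, 4 had both marks in DMSO cells (PRRX1, FOSL1, TBX18 and YAP1), 2 (FOSL2 and SNAI2) had H3K4me1 only and 9 had neither, or 23.5%, 11.8% and 52.9%. The 4 with both marks had H3K27me3 only in siCtrl, and FOSL2 and SNAI2 had H3K4me1 only there too. PRRX1, a mesenchymal homeobox factor, was covered to 100% in all 4 DMSO libraries, ranked at 97.7 and 97.8 for H3K27me3 and at 86.2 and 68.2 for H3K4me1. FOSL1, an AP-1 subunit, ranked at 93.8 and 92.9 for H3K27me3 but at 56.2 and 9.2 for H3K4me1, and YAP1, the effector of the Hippo pathway, at 83.9 and 79.7 and at 40.9 and 19.0. CD44 had neither mark.

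Of 12 catecholamine synthesis and granule genes, 4 had both marks (TH, DBH, PNMT and CHGA), none had H3K27me3 only and 5 had neither. The share with both marks was 33.3%, beside 7.66% of all coding genes. At TH, DBH and CHGA siCtrl called H3K4me1 only, and at PNMT both. TH, the rate-limiting enzyme of catecholamine synthesis, lay in H3K4me1 islands of 25 and 26.6 kb ranked at 98.6 and 98.5, and in H3K27me3 islands of 28.6 and 25.4 kb ranked at 88.0 and 84.5. In siCtrl the H3K4me1 islands at TH were 27.8 and 29.8 kb wide, and no H3K27me3 island touched the start. DBH, which turns dopamine into noradrenaline, ranked at 98.5 and 98.6 for H3K4me1 and at 82.5 and 88.2 for H3K27me3, the latter called in neither siCtrl library. The DMSO H3K27me3 islands at TH thus ran along the H3K4me1 islands, as the map of islands shows. DDC had neither mark in DMSO cells.

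**Figure D4:**
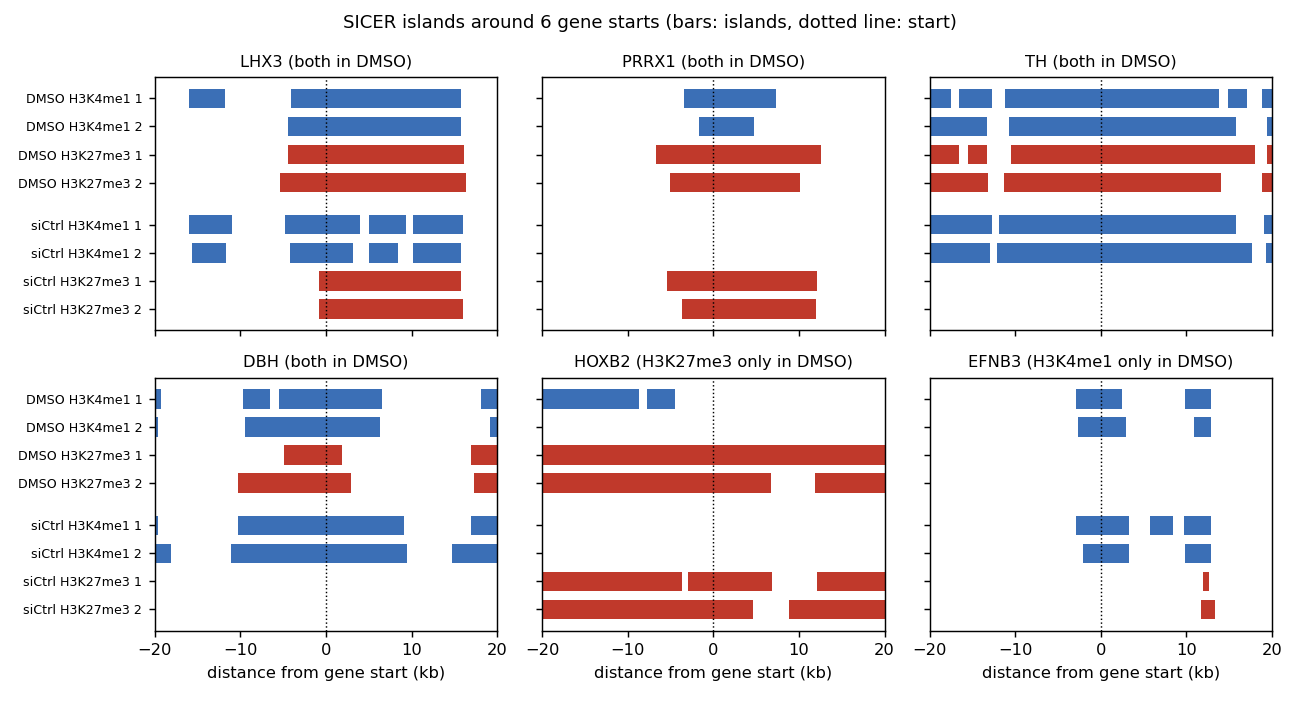
Islands (bars) within 20 kb of the start of 6 genes in the 4 DMSO and 4 siCtrl libraries (rows; blue H3K4me1, red H3K27me3), by distance from the start along the gene (x axis, kb). At TH and DBH the siCtrl H3K27me3 rows are empty and at PRRX1 the siCtrl H3K4me1 rows are, while DMSO calls both marks; HOXB2 and EFNB3 keep 1 mark at the start.

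Of 15 adrenergic core transcription factors, which define the noradrenergic state of neuroblastoma, 4 had both marks (26.7%, beside 7.66% of all coding genes), 1 H3K4me1 only (6.67%, beside 8.66%) and 7 neither, HAND2 among these. MYCN, the amplified oncogene, was covered to 100% by both marks in all DMSO and siCtrl libraries, in islands ranked at 100.0 in each of the 4 DMSO libraries. MYCN lies in an interval amplified in this line, and the part of copy number in these ranks was not tested. HAND1 ranked at 98 and 96.7 for H3K4me1 and at 77.8 and 78.0 for H3K27me3, and GATA2 at 94.8 and 93.7 and at 53.3 and 57.6. Both had H3K4me1 only in siCtrl. INSM1, a neuroendocrine factor, went the other way, with H3K4me1 at 1.2 and 20.5 and H3K27me3 at 47.1 and 53.7, and H3K27me3 only in siCtrl. EYA1 had neither mark. As a check of the cell type, TH, DBH, CHGA and HAND1 all carried H3K4me1 islands at the start, whereas HAND2, another defining gene, had none at its start in any DMSO or siCtrl library.

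Receptor and guidance genes were mixed. Of 15 receptor tyrosine kinase and neurotrophin receptor genes 6 had both marks, 1 (MET) H3K27me3 only and 1 H3K4me1 only, or 40%, 6.67% and 6.67%, beside 7.66%, 3.06% and 8.66% of all coding genes. RET, a receptor for glial-derived neurotrophic ligands, ranked at 99.7 in each library for H3K4me1 and at 94.3 and 89.7 for H3K27me3, and PDGFRB, a receptor for platelet-derived growth factor, at 99.0 and 98.8 and at 88.4 and 88.5; siCtrl called H3K4me1 only at both. KIT was unsettled, with H3K27me3 at 88.2 and 84.6 and H3K4me1 in replicate 1 alone, and EGFR had neither. Of 29 axon guidance genes, 5 had both marks, 3 H3K27me3 only and 4 H3K4me1 only, or 17.2%, 10.3% and 13.8%. SLIT2, a repulsive ligand, and EPHB1, an ephrin receptor, ranked at 96.0 and 95.8 and at 95.3 and 95.4 for H3K27me3, with H3K4me1 at 83.3 and 73.1 and at 74.1 and 65.3. EFNB3, an ephrin ligand, had H3K4me1 only, at 71.2 and 74.9. UNC5A, a netrin receptor, was unsettled, with H3K4me1 at 97.2 and 97.4 and H3K27me3 in replicate 2 alone, at 75.7. EFNB2 had neither.

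The share of starts with neither mark was 71.4% over all coding genes. Among cell cycle, chromatin and ribosomal genes it was 76.3% for E2F targets, 53.3% for CDK4/6-RB pathway genes, 84.6% for PRC2 and KDM6 genes, 93.3% for H3K4 enzymes and 82.4% for ribosomal protein genes. None of 38 E2F target genes had both marks or H3K27me3 only, beside 7.66% and 3.06% of all coding genes. H3K4me1 only was found at 6 of them (15.8%, beside 8.66%), and 29 had neither mark. Among the 38 genes MYBL2 and E2F1 were covered by H3K4me1 to 100% and 87.1%, and 90.5% and 80.5%. Neither gene had H3K27me3 in any DMSO or siCtrl library. CDT1 was unsettled through an H3K27me3 island in replicate 1, and AURKA, E2F8 and CCNE1 had neither mark. Of 15 CDK4/6-RB pathway genes 3 had both (20%, beside 7.66% of all coding genes). CCND2, cyclin D2, ranked at 99.1 and 98.7 for H3K27me3 and at 82.7 and 68.1 for H3K4me1, and had H3K27me3 only in siCtrl. CDK4 had both marks in DMSO and siCtrl cells, though its start window was covered to 100% by H3K4me1 in replicate 1 and to 0.25% in replicate 2. CDKN1A, the CDK inhibitor p21, ranked at 82.0 and 81.8 for H3K4me1 but at 8.0 and 12.6 for H3K27me3, which siCtrl did not call. CCND1 had neither mark.

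Of 13 PRC2 and KDM6 genes, KDM6B alone had both marks, JARID2 had H3K4me1 only and 11, EZH2 and AEBP2 among them, had neither. With 7.69% for this list and 6.67% for the H3K4 enzymes, the shares with both marks were near the 7.66% of all coding genes. KDM6B, the demethylase targeted in the study, was covered to 100% by both marks in all 4 DMSO libraries, at 81.4 and 87.4 for H3K4me1 and 44.3 and 30.6 for H3K27me3, and had H3K4me1 only in siCtrl. Among 15 genes for H3K4 methyltransferases and demethylases KMT2B had both marks, at 54.3 and 57.1 for H3K4me1 and 53.1 and 50.2 for H3K27me3, and 14, with ASH2L, had neither. Of 34 ribosomal protein genes 1 (2.94%) had both marks, RPL18, at 14.7 and 9.8 for H3K4me1 and 65.9 and 55.3 for H3K27me3. RPS15 had H3K4me1 only, and 28 genes, RPL10A among them, had neither. NAV2 had H3K27me3 only, over 26.5% and 36.5% of its window, at 54.6 and 59.0. FAM49A, listed as CYRIA in the annotation, had neither mark in DMSO cells and H3K27me3 over 100% of its window in each siCtrl library.

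**Figure D5:**
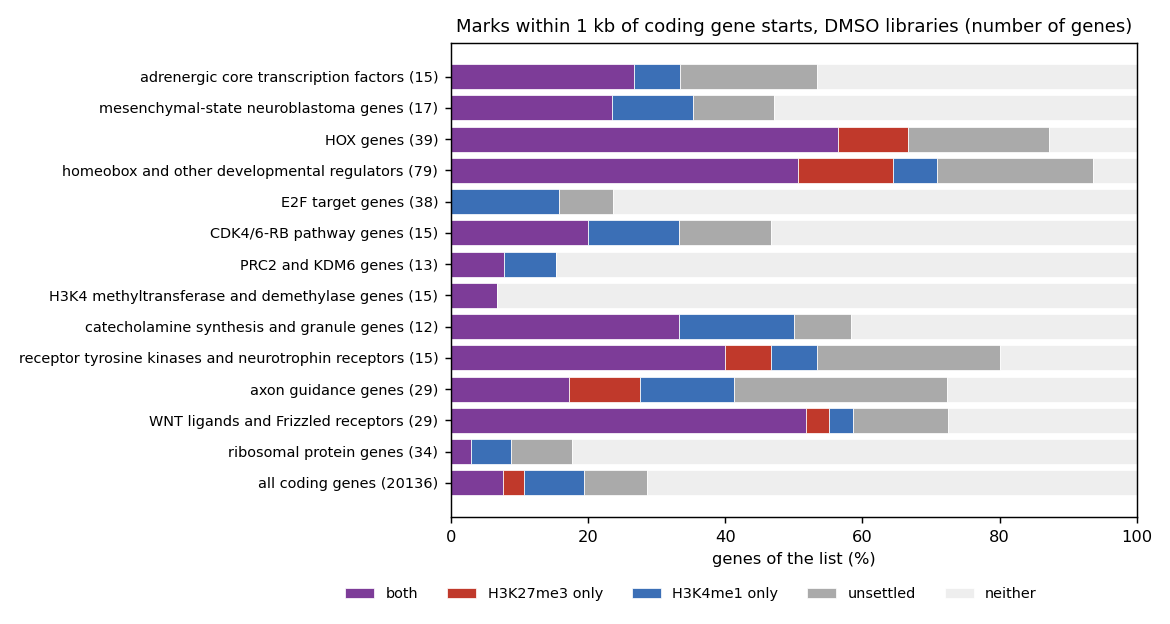
Share of the genes of 13 lists and of all 20136 coding genes (x axis, percent; number of genes in brackets) by the marks within 1 kb of the start in the DMSO libraries: both (purple), H3K27me3 only (red), H3K4me1 only (blue), unsettled (grey) or neither (light). HOX genes (56.4%), WNT and Frizzled genes (51.7%) and developmental regulators (50.6%) stand above the 7.66% of all genes with both marks, and E2F targets have none.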

How the data were processed

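CUT&Tag of H3K4me1 and H3K27me3 in BE2C cells was analysed from the lists the authors deposited for each library. The authors trimmed reads (Trim Galore 0.4.4), aligned them to hg19 (BWA 0.7.12), removed duplicates (Picard 1.65), kept uniquely mapped proper pairs (SAMtools 1.3.1) and called islands with SICER 1.1, with a window of 200 bp. The deposited score is SICER's island score and is not comparable between libraries. The narrow peaks the authors deposited give a fold (a ratio over background) and −log10 p and q values from MACS2; the labels name version 2.1.1 and the study's methods a later one. From the deposited fold and −log10 p values, the summit pileup and background were solved. Spike-in scaling and the authors' differential analysis were not used here.

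Island lists were laid on 200 bp bins (Python 3.11.15, NumPy 2.4.6, pandas 2.3.3, SciPy 1.17.1, pysam 0.24.0), leaving out the mitochondrial genome. Regions were joined islands, sharing at least 1 bp; gene starts came from GENCODE 44 mapped to hg19, and 1 of 351 listed genes had no match. Percentiles are mid-ranks within a library. Libraries were compared by two-sided exact permutation; other values are descriptions. The study states biological replicates. Functions were tested on planted regions. Members and lists were chosen with earlier results of these data known. Genes named are, per list, the most covered by each mark and the alphabetically first with neither, the 8 highest ranked regions of each class, and genes the study discusses; other members of a list named for their class were chosen after their values were seen. Some genes and sequences that these rules name are not reported here.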

Additional observations from a re-analysis of the deposited data

Results flagged for a closer look

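Co-called H3K4me1 islands ranked above the other H3K4me1 islands in both DMSO libraries and below them in both siCtrl libraries once width was taken into account. By score per kb of island, the median percentile of co-called islands minus that of the others was 35.1 and 35.7 in DMSO cells and -6.92 and -6.76 in siCtrl cells, a difference of 42.3 (two-sided exact permutation p = 0.33, the smallest that 2 against 2 libraries allow). By score within 10 bins of island width it was 22.3 in each DMSO library and -8.04 and -8.76 in siCtrl cells, a difference of 30.7 (exact permutation p = 0.33). With the score itself the direction was the same in both conditions, 45.1 in DMSO and 2.29 in siCtrl cells as means over libraries. In the other conditions co-called H3K4me1 islands stood above the others by score per kb, at median percentiles of 74.8 against 40.1 and 73.8 against 40.2 in GSK-J4 cells and of 55.5 against 49.1 and 56.5 against 49.1 in siKDM6B33 cells, so the lower rank was seen in siCtrl alone of the 4 conditions.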

How the results depend on the processing

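The share of H3K27me3 length under H3K4me1 (53.5%) ranged from 47.5% to 62% when 1 library was left out, and from 48.2% to 56.2% under the other alternatives, narrow peaks included. With islands at or above their library's median score, regions with both marks numbered 1771 and coding genes with both marks 743, in place of 4049 and 1542, because fewer islands were kept; the other alternatives stayed within 1.5 times. The higher rank of co-called H3K27me3 islands (8.89) was 15.9 by score per kb, 13.8 within 10 bins of width, 22.4 in siCtrl libraries and 8.43 to 18.7 with 1 library left out, the last without H3K4me1 replicate 2; it reversed to -5.19 where at least 50% of the island had to lie under H3K4me1, and the cause was not tested. That of H3K4me1 islands (45.1) was 35.4 by score per kb, 22.3 within 10 bins of width, 2.29 in siCtrl libraries, 43.4 with the 50% rule and 44.2 to 45.3 with 1 library left out. The share of regions with both marks that both siCtrl H3K27me3 libraries called (32%) was 23% by length, 33.4% with either library, 32.7% with 1 library left out, 29.3% with the higher scored siCtrl islands, 32% without the MYCN interval, 32.6% in siKDM6B33 and 96.8% in GSKJ4 cells; these settings were chosen after seeing the data. Same-numbered libraries of the marks shared no more (Jaccard index 0.328 and 0.323) than crossed ones (0.34 and 0.313). This index also depends on the length each library covers, so it cannot show whether same-numbered libraries came from the same cells. With the replicate block the share was 53.9%, regions with both marks numbered 5630, and the width difference of 3800 bp had an exact p of 0.5. Width kept its direction, from 3600 to 4700 bp.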
